A study of Mus musculus with 90 samples.

Results

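The genes described here are 42 genes of mitosis, listed apart from 18 genes of cytokinesis. Their rows were found by symbol in a table of 35869 genes. All 42 were present. They were read in 33 single cells of 4 groups, and a mitosis score was made for each cell as the mean log2(TPM + 1) over the 42 genes. TPM is a transcript abundance scaled per length and to the same total in every library.

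The cells were CD41pos HSCs, blood stem cells that carry the platelet integrin CD41, from mouse bone marrow. All mice carried RUNX1f/f, a Runx1 gene flanked by recombination sites. Wild-type (WT) mice had the genotype MxCre1-/-,RUNX1f/f and knockout (KO) mice MxCre1+/-,RUNX1f/f, and mice of both genotypes received 4 poly(I:C) injections. That agent switches on Mx1-Cre, whose promoter answers to interferon and is not limited to blood cells. Cells were taken 4 weeks after injection, cultured for 2 days and labelled MK (megakaryocyte) or NMK (not megakaryocyte). The table, from which the authors had left out outliers, held 9 WT NMK and 6 WT MK cells, with 13 cells labelled KO NMK and 5 labelled KO MK. Replicate names such as 4A or B1-3 are those of the sample titles. No age, animal or culture is named in the labels, so a group is taken as 1 sample and nothing was tested. Every difference is set beside the pooled SD between cells, and a gene is called higher or lower where the difference in mean log2(TPM + 1) reached 1 and exceeded that SD. Genes needed a mean of 1 TPM in either group to be compared.

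Depth is unknown in TPM. Runx1 lay between 0 and 15.7 TPM in WT NMK, 7.6 and 22.2 in WT MK, 0 and 41.5 in KO NMK and 8.9 and 47.5 in KO MK. Such values count intact and recombined transcripts alike, so they check no genotype label. The KO NMK cells B1-1b and B1-2a had housekeeping scores of 4.62 and 3.01, where the other 31 cells had 8.76 or more, and are called failed libraries below. Group score differences and counts of calls that include them are also given without them. The 5 WT MK libraries with no title prefix correlated with each other at 0.961 to 0.973 over 12138 genes, against 0.902 to 0.919 with WT MK B1-1 and 0.594 to 0.785 among WT NMK cells. These 5 may therefore not be separate cells, which was not tested. Megakaryocyte-platelet genes, scored the same way, marked all 6 WT MK cells at 4.46 to 5.44 but only 3 of 5 KO MK cells, 1A at 7.18, 1B at 7.96 and B1-3 at 6.89. KO MK 2 and B1-4 were at 2.15 and 1.87, inside the range of 0.74 to 2.84 seen in KO NMK cells, so the MK label goes against the markers there.

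Mitosis follows DNA replication and parts the copied chromosomes. Cyclin A and B with the kinase Cdk1 drive entry, condensins and topoisomerase compact and untangle the chromosomes, kinetochores attach them to the spindle, and a checkpoint holds the anaphase-promoting complex until all are attached. Megakaryocytes become polyploid by endomitosis, in which a cell enters mitosis, does not complete anaphase and division, and copies its genome again. Mitosis genes as a class are switched off in resting cells and peak in the G2 and M phases, partly through promoters that hold CCAAT boxes and the cell cycle homology element TTTGAA.

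Promoter sequences of the members were searched for that reason. Windows of 300 bases, from 250 before to 50 after the start, came from RefSeq on build GRCm38.p6 and were matched by symbol for 36 of 42 genes, as 37 windows because Bub3 has more than 1. Ccna2, Foxm1, Kif20a, Tpx2, Spc24 and Smc4 had no entry. The first motif was TTTGAA, which reads TTCAAA on the opposite strand. A variant of it, TTCGAA, reads the same on both strands and was counted once. The third was CCAAT, which reads ATTGG on the opposite strand. Both strands were searched, and matches were counted separately also where they share bases. TTTGAA was found in 29 of 37 member windows (78.4%), against 17.9% of all 32851 windows. CCAAT was found in 29 of 37 (78.4%), against 37.4%, and both stood in 26 windows (70.3%), against 6.95%. TTCGAA was found in 3 windows (8.11%), against 1.56%, and 5 windows (13.5%) held no motif, against 50.9%. For the DNA replication list, TTTGAA stood in 10.3% of windows, for the cytokinesis list in 61.9% and for a list of other mitosis genes in 40.7%. In the same order, CCAAT stood in 59.0%, 42.9% and 66.1%, and TTCGAA in 5.13%, 0% and 13.6%. A match describes letters in a window and is neither a site nor a cause.

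The 4 members below held the most matches among those that the naming rule chose for values per cell, and outside that rule Hmmr held 6 and Cdca8 and Cdk1 held 5 each. They include the DNA topoisomerase and the proliferation antigen whose values per cell are given further below. Capitals mark the motifs.
Top2a, chr11:99024140-99024439, minus strand: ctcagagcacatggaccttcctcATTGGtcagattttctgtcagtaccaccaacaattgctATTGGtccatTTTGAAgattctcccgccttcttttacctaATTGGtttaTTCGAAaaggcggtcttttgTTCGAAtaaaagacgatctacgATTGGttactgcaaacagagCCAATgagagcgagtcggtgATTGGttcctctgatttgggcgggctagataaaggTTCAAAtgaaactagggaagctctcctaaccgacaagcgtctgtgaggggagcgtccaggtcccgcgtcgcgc
Ube2c, chr2:164769679-164769978, plus strand: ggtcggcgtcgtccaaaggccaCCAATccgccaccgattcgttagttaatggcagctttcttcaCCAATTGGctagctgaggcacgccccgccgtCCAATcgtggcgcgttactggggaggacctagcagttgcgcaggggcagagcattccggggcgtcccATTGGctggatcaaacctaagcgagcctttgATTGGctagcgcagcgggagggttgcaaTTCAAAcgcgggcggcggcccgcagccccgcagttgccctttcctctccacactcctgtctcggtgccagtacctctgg
Ccnb2, chr9:70421505-70421804, minus strand: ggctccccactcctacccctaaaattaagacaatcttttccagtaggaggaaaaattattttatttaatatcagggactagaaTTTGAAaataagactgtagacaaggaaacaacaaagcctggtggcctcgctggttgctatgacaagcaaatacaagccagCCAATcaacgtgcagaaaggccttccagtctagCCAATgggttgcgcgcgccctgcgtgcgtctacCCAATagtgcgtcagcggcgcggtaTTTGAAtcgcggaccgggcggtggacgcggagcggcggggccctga
Mki67, chr7:135716330-135716629, minus strand: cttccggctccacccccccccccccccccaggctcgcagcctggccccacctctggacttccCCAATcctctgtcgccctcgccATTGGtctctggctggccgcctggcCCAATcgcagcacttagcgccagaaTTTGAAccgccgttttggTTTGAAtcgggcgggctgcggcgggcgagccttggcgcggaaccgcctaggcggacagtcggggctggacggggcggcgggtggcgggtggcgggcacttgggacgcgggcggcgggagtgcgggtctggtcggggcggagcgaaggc
The Top2a window, for the topoisomerase that untangles chromosomes, held 6 CCAAT, 2 TTTGAA and 2 TTCGAA matches. The Ube2c window, for the ubiquitin carrier of the anaphase-promoting complex, held 6 CCAAT matches, of which 2 share bases in the palindrome CCAATTGG, and 1 TTTGAA. Those of Ccnb2, a B-type cyclin, and Mki67, the Ki-67 antigen on mitotic chromosomes, each held 3 CCAAT and 2 TTTGAA matches.

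The WT NMK cells were split into cells with many and cells with few mitosis transcripts, and such a gap was not seen among sound cells of the other groups. Mitosis scores of WT NMK cells were 0.79 in 4A, 0.90 in 2, 1.25 in 1B, 2.03 in 4B and 2.11 in 2B, then 4.77 in 1, 5.30 in 3A, 5.33 in 1A and 5.44 in 3. No WT NMK cell lay between 2.11 and 4.77. WT MK cells lay from 4.17 to 5.45, with a median of 5.01. KO NMK cells lay from 0.17 to 6.70, with a median of 5.22, and only the 2 failed libraries, at 0.17 and 1.30, were under 3.20. KO MK scores were 3.10 in 1B, 4.14 in 1A, 4.90 in 2, 5.41 in B1-4 and 6.32 in B1-3. All KO MK and all sound KO NMK cells were thus above the 5 lowest WT NMK cells.

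**Figure D1:**
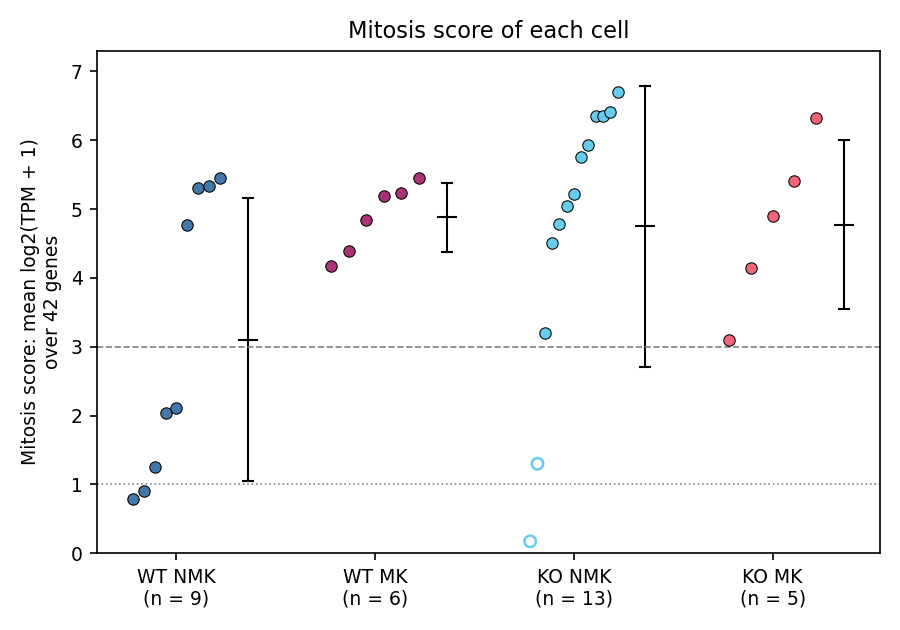
Mitosis score of each cell (vertical axis, mean log2(TPM + 1) over 42 genes) by group, 1 point per cell, with the mean and SD between cells at the right of each group. Open points are the 2 failed libraries, and dashed and dotted lines are the limits of high (3) and low (1) scores. WT NMK cells fall at 2.11 or less or at 4.77 or more, and every WT MK and KO MK cell is above 3.

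With a high score set at 3 or more and a low score at under 1, 4 of 9 WT NMK cells were high (44.4%, exact 95% interval 13.7% to 78.8%) and 2 of 9 were low (22.2%, 2.81% to 60.0%). The remaining 3 WT NMK cells were between the limits. All 6 WT MK cells were high (interval 54.1% to 100%), as were all 5 KO MK cells (47.8% to 100%). In KO NMK, 11 of 13 cells were high (84.6%, 54.6% to 98.1%), and all 11 without the failed libraries (71.5% to 100%). The only KO NMK cell with a low score, 7.69% of the group, was the failed library B1-2a. No low cell was seen among the WT MK and KO MK cells, where the exact upper limit of the share was 45.9% and 52.2%. With libraries of the full table that had a housekeeping score of 6 or more, 5 of 7 KO MK cells were high (71.4%) and 1 was low, since KO MK 1 (0.67) and B1-1 (2.08) came in. Intervals cover counting error only and overlap between WT NMK and each other group. They take each library as a separate cell, which may not hold for 5 of the 6 WT MK libraries, so the WT MK limits may be too narrow. No WT NMK cell stood within 0.5 of the high limit, and 3 stood within 0.5 of the low one. KO NMK 4A, at 3.20, and KO MK 1B, at 3.10, stood just above the high limit.

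The mean score was 3.10 ± 2.06 (SD, n = 9) in WT NMK and 4.88 ± 0.51 (n = 6) in WT MK. It was 4.75 ± 2.04 (n = 13) in KO NMK and 4.77 ± 1.23 (n = 5) in KO MK. Without the failed libraries KO NMK stood at 5.48 ± 1.05 (n = 11). The number of members at 1 TPM or more spanned 6 to 41 in WT NMK, 39 to 41 in WT MK, 24 to 42 in sound KO NMK and 31 to 41 in KO MK. In the same groups, the number of genes of any kind above 0 spanned 5475 to 11715, 14089 to 15252, 6443 to 10987 and 11896 to 14487. More genes were thus listed above 0 in MK than in NMK cells of either genotype, and the part of this in the member counts was not tested. The members made up 0.025% to 0.550% of all TPM in WT NMK and 0.211% to 0.566% in WT MK.

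Not all members followed the split of WT NMK cells. Bub3, a checkpoint protein, lay at 37.5 to 140.4 TPM in the 5 cells under the high limit and at 36.4 to 190.0 TPM in the other 4. Smc4, a condensin core subunit, lay at 18.4 to 92.5 TPM and at 67.8 to 162.6 TPM. Pttg1, the separase inhibitor securin, lay at 9.1 to 96.3 TPM and at 26.9 to 113.1 TPM. Ccna2 overlapped as well, at 0 to 44.6 TPM and at 26.6 to 43.4 TPM, and so did some other members. Only Bub3, Smc4 and Pttg1 were at 1 TPM or more in all 5 cells under the limit. Under 1 TPM in all 5 were 14 members, among them Plk1, Birc5, Cenpa and Fbxo5. In the other 4 cells, 32 of 42 members reached 1 TPM in every cell. The cells were divided by the score of these same genes, so such counts follow in part from the division itself. Cells without most mitosis transcripts still held replication transcripts: the DNA replication score was 4.38 in 4A, 4.40 in 1B, 4.65 in 4B and 5.35 in 2B, against 4.19 to 4.83 in the 4 high cells. WT NMK 2, at 1.34, was the exception, with Cdk1 at 0.9 TPM against 58.4 to 497.6 TPM in the other 8 cells.

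**Figure D2:**
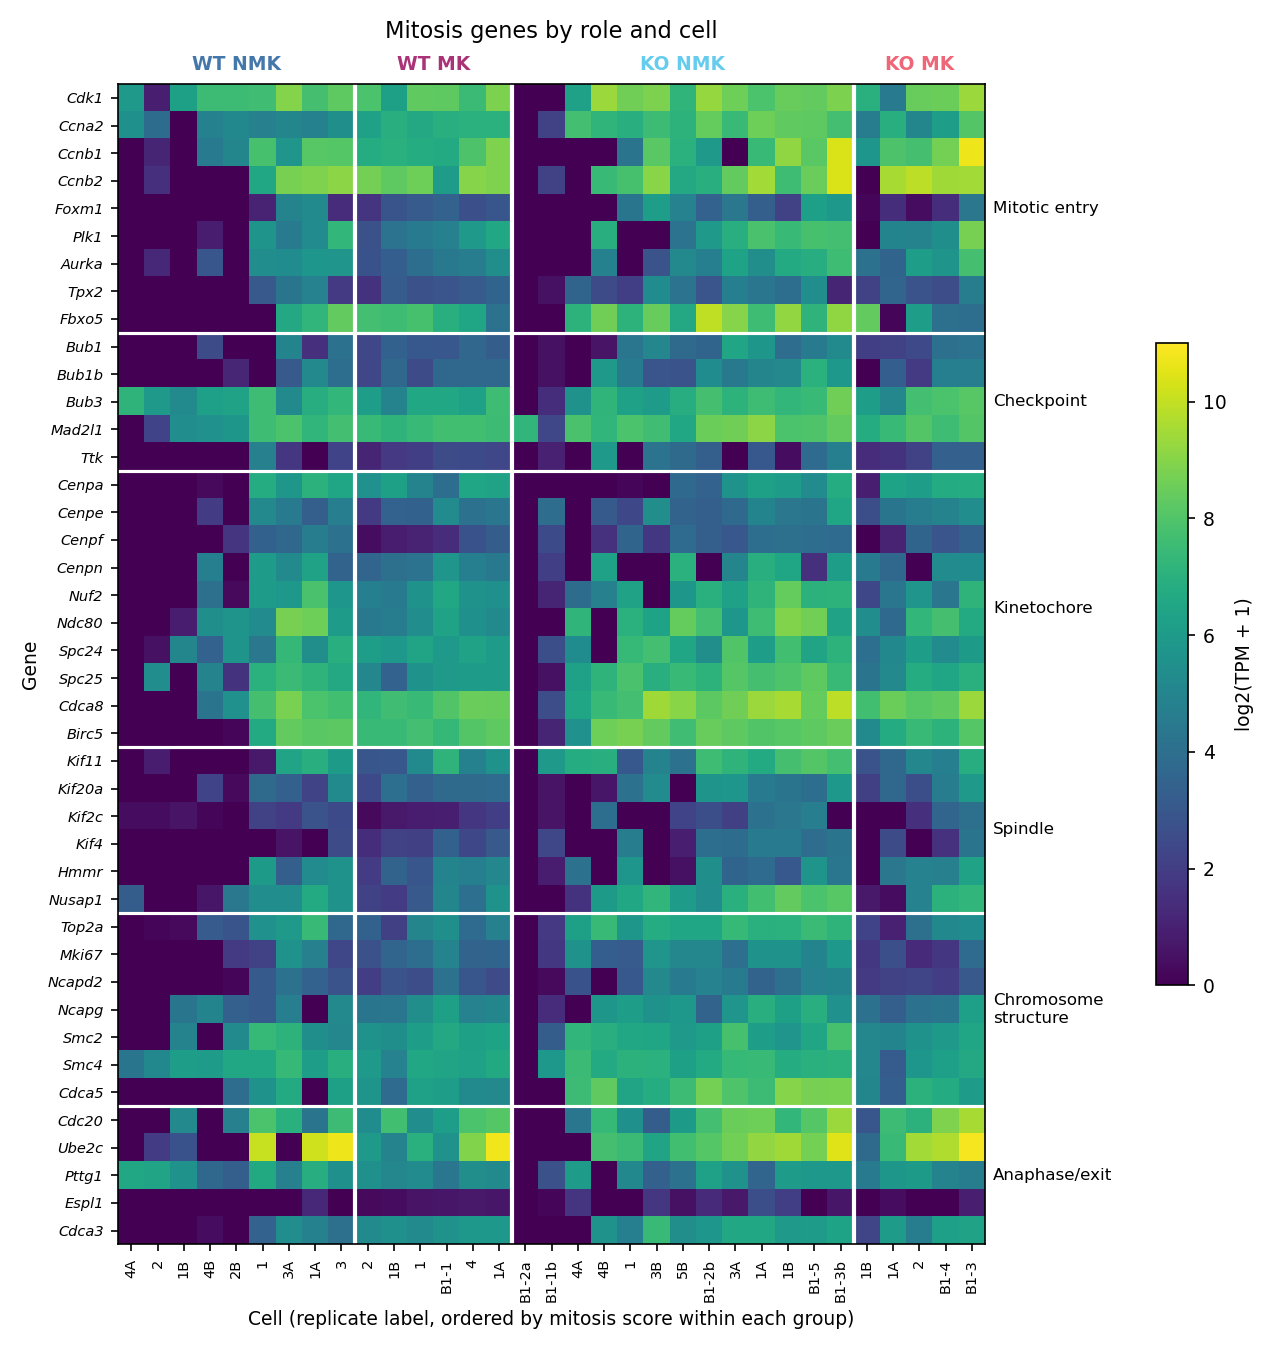
log2(TPM + 1) of the 42 genes (rows, by role) in 33 cells (columns, replicate labels, ordered by mitosis score in each group), from 0 (dark) to 11 (bright). The 5 leftmost WT NMK cells are dark in most rows. Exceptions are Bub3, Smc4 and Pttg1 in all of them, Ccna2 and Cdk1 in 4 each, and some other rows in part. The 2 leftmost KO NMK cells are the failed libraries.

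WT MK against WT NMK cells came first among the comparisons. The mean mitosis score was higher in WT MK cells by 1.78, little more than the pooled SD of 1.64. The WT NMK cells themselves were split, which widens that SD. By role, entry genes had the largest score difference (2.34, SD 1.91) and exit genes the largest median difference (2.69, over 5 genes with Espl1). Called higher were 14 of 41 members compared and called lower 0, where 25.6% and 3.33% of all 11562 genes were called higher and lower. Leaving out 1 cell at a time gave 8 to 23 calls, the fewest without WT NMK 2 or 4A and the most without WT NMK 3, 1A or 3A. The count of members called higher was thus not far from the share among all genes, and it moved with single cells. Espl1, the separase, did not reach a mean of 1 TPM in either group and was not compared. The median member difference was 1.72 over all 42 members, Espl1 included, against 0.70 over the genes compared. With no title prefix in either group the score difference was 1.71 (SD 1.71), and WT NMK holds no cell with the prefix B1. With the WT MK libraries without prefix counted as 1, it was 2.00 (SD 1.94, n = 2 and 9).

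Of the 9 entry genes, 4 were called higher: Ccna2, Ccnb1, Ccnb2 and Fbxo5. Ccna2, which encodes cyclin A and whose values were chosen for description after they were seen, was the 1 member whose WT MK and WT NMK cells did not overlap. It stood at 0 in WT NMK 1B and at 13.6 to 44.6 TPM in the other WT NMK cells, with a group median of 27.9. In WT MK it lay at 77.3 to 128.6 TPM, with a median of 119.3. The 4 WT NMK cells with high mitosis scores held 26.6 to 43.4 TPM, under every WT MK cell. The difference in mean log2(TPM + 1) was 2.41 (SD 1.36). In the full table, whose added WT MK libraries all had a housekeeping score under 6, it was 0.12, and only 1 member was called. Among all genes, 4.58% were higher with no overlap in this comparison, so the 1 of 41 members was under that share. Exons of Ccna2 (chr3:36564865-36572150, minus strand, GRCm38) overlap those of Exosc9 on the opposite strand, and the strand setting of the counting is not given in the sources used here.

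Ccnb2 had a median of 1.8 TPM in WT NMK (0 to 550.0) and of 398.6 TPM in WT MK (66 to 517.3), a difference of 4.39 (SD 3.45). The ranges overlapped because the 4 high WT NMK cells held 92.5 to 550.0 TPM. Ccnb1, the main mitotic cyclin, lay at 0 to 283.5 TPM in WT NMK and 103.4 to 471.4 TPM in WT MK (2.84, SD 2.70). Fbxo5, the inhibitor Emi1 that keeps the anaphase-promoting complex off between replication and mitosis, was above 0 in only 3 of 9 WT NMK cells, 3A at 99.5, 1A at 148.5 and 3 at 322.4 TPM. It was present in all 6 WT MK cells, at 16.6 to 223.6 TPM (4.30, SD 3.05). Cdk1, the kinase of both cyclins, was not called (1.09, SD 1.94).

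Of 5 checkpoint genes, Bub1 and Bub1b, kinases at the unattached kinetochore, were called higher at low levels, Bub1b with 4.1 to 12.3 TPM in WT MK and 0 to 34.8 TPM in WT NMK (1.79, SD 1.65). Mad2l1, which blocks Cdc20, was at 141.0 to 202.7 TPM in WT MK but already at 148.9 to 236.2 TPM in the 4 high WT NMK cells (2.00, SD 2.13, not called). Bub3 differed by less than the spread (-0.06, SD 0.86). Of 10 kinetochore genes, Birc5 and Cdca8, subunits of the chromosomal passenger complex, were called higher. Birc5, the survivin gene, was 158.3 to 310.4 TPM in WT MK and at most 0.1 TPM in 5 WT NMK cells, though 105.3 to 327.1 TPM in the other 4 (4.17, SD 3.27). Cenpa, the centromeric histone, and Ndc80, which binds microtubules, were not called (2.65, SD 2.77, and 0.72, SD 2.72).

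Of 6 spindle genes, the motors Kif20a and Kif4 were called higher, Kif4 at 1.7 to 9.6 TPM against 0 to 4.8 TPM (2.08, SD 0.80). Kif11, the motor that separates spindle poles, and Nusap1, a microtubule bundler, were not called (2.46, SD 2.64, and 0.14, SD 2.27). Of 7 chromosome genes, Cdca5 (sororin, which protects cohesin), Mki67 and the condensin subunit Ncapg were called higher. Cdca5 was 13.4 to 78.1 TPM in WT MK and 0 in 5 of 9 WT NMK cells, with 106.0 TPM as the highest there (2.90, SD 2.46). Of 4 exit genes compared, only Cdca3, a substrate of the anaphase-promoting complex that promotes mitotic entry, was called (3.54, SD 1.86), at 36.1 to 56.7 TPM in WT MK and 0 to 40.6 TPM in WT NMK. Ube2c was 29.2 to 1739.2 TPM in WT MK, and in WT NMK either 1094.7 TPM or more, in 3 cells, or at most 5.9 TPM, in 6 cells (3.22, SD 4.07).

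**Figure D3:**
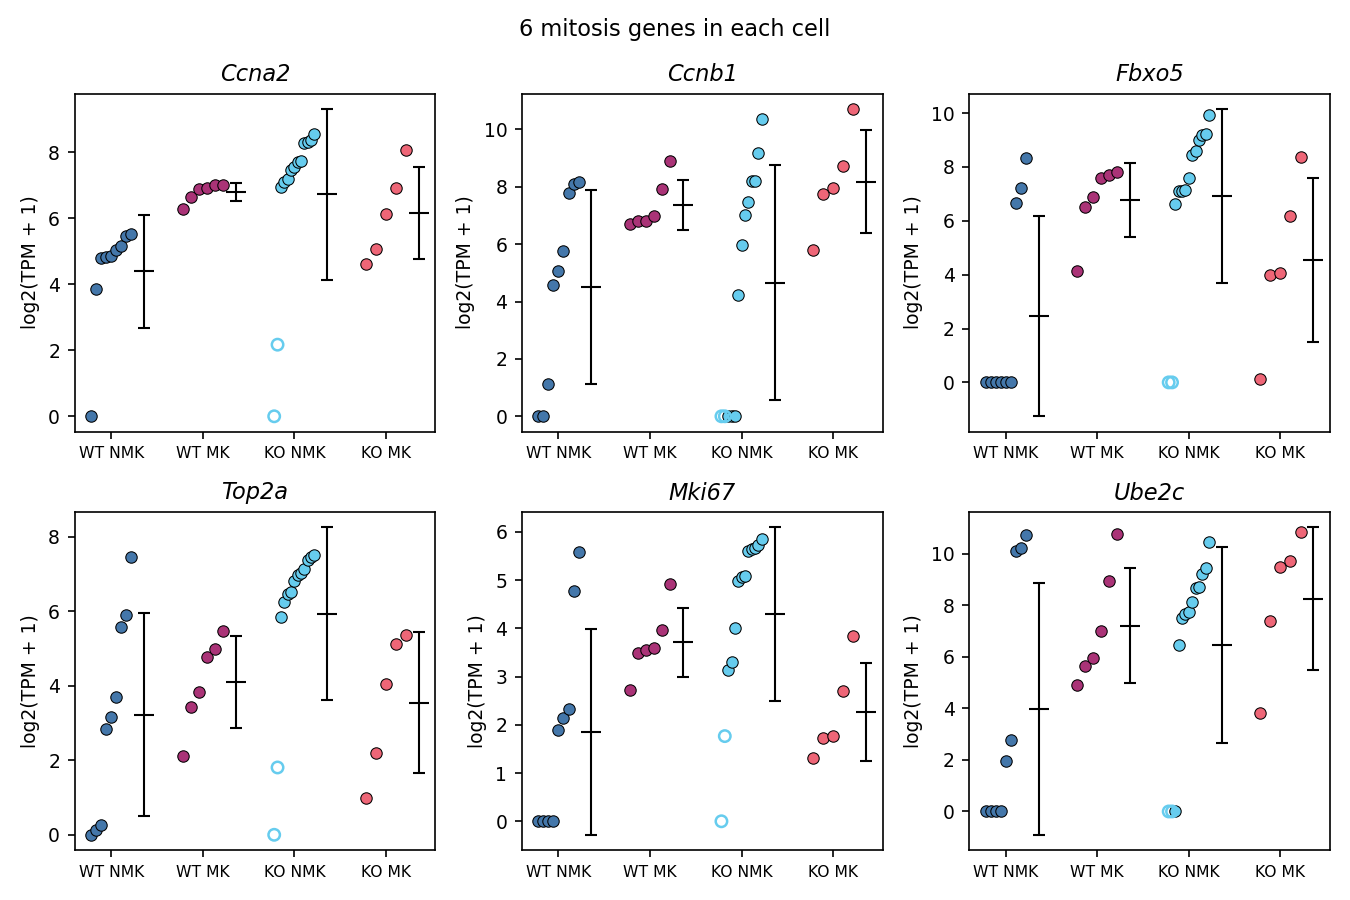
log2(TPM + 1) (vertical axes) of 6 genes in each cell of the 4 groups, with the mean and SD between cells beside each group, including the 2 failed libraries (open points). WT NMK cells are lower than every WT MK cell and every sound KO NMK cell in Ccna2, and KO MK cells lower than every sound KO NMK cell in Top2a.

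Genes near the members behaved unevenly in the WT comparison. Of 65 other mitosis genes, 24 were called higher and 1 lower, with Ckap2l, a spindle protein, at 99.5 to 194.7 TPM in WT MK and 0 to 33.5 TPM in WT NMK. Of 15 genes of the anaphase-promoting complex, 4 were higher and 1 lower, and of 43 DNA replication genes 11 were higher and 0 lower, both near the 25.6% called higher among all genes. Of 24 genes compared from a list of G1 cyclins, their kinases and inhibitors, with Rb1 and E2f8 also listed, 10 were higher. Rb1, the brake on E2F, was among those called (2.85, SD 1.09). Of 16 cytokinesis genes compared, 2 were higher and 1 lower. The score differences were 1.43 (SD 0.96) for other mitosis genes, 1.18 (SD 0.94) for replication and 0.74 (SD 0.61) for cytokinesis, beside 1.78 (SD 1.64) for the members. Housekeeping genes differed by 0.40 (SD 0.25).

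The mean mitosis score was higher in KO NMK than in WT NMK cells, with all libraries by less than the pooled SD. The 4 high WT NMK cells, at 4.77 to 5.44, lay inside the sound KO NMK range of 3.20 to 6.70. The score difference was 1.64 (SD 2.04) with all libraries and 2.37 (SD 1.58) without the 2 failed ones, and it was 2.07 (SD 1.67) among cells with no title prefix. Called higher were 9 of 42 members and called lower 0, beside 2.52% and 2.19% of all genes. With 1 cell left out there were 5, without WT NMK 2 or 1B, to 15, without WT NMK 3A or KO NMK B1-2a. Without the failed libraries 22 were higher and 0 lower, beside 10.2% and 2.06%. The median member difference was then 2.40, against 0.36 over the genes compared. Chromosome genes held the most calls, 6 of 7, followed by 5 of 9 entry, 3 of 5 checkpoint, 3 of 6 spindle, 3 of 10 kinetochore and 2 of 5 exit genes.

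Ccna2 again was the 1 member without overlap, at 123.5 to 376.2 TPM in the 11 sound KO NMK cells (median 208.6) against the 0 to 44.6 TPM of WT NMK, a difference of 3.36 (SD 1.22). Such separation was seen in 0.136% of all genes. The failed KO NMK libraries held 0 and 3.5 TPM. Fbxo5 was 97.8 to 972.0 TPM in every sound KO NMK cell (median 346.7), while 6 of 9 WT NMK cells had 0 (5.71, SD 2.62). Cdca5 was 85.1 to 506.9 TPM, with 1 WT NMK cell, 3A at 106.0 TPM, inside that range (5.44, SD 2.14). Top2a was 56.2 to 180.9 TPM, and 2 WT NMK cells, 3A at 58.3 and 1A at 175.0 TPM, were inside it (3.62, SD 1.86). Kif11, at 7.2 to 265.9 TPM against 0 to 117.9 TPM, was also called (4.11, SD 2.42).

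Ccnb1 and Cenpa were not called. Ccnb1 was 0 in the sound KO NMK cells 3A, 4A and 4B and 1317.4 TPM in B1-3b (a difference of 1.0, SD 3.66), and Cenpa was under 1 TPM in 4 of 11 sound cells (0.46, SD 3.12). KO NMK 4A, the sound KO NMK cell with the lowest score, had 0 TPM of Ccnb1, Ccnb2, Ube2c, Plk1 and Cenpa but 211.7 of Ccna2, 138.3 of Fbxo5 and 75.7 of Top2a. Its replication score was 5.52. KO NMK 4A also had the fewest genes above 0 of the sound KO NMK cells (6443), and the part of this in its 0 values was not tested. The difference without failed libraries was not limited to members. Also called higher were 25 of 65 other mitosis genes and 19 of 43 replication genes. So were 7 of 16 cytokinesis genes and 8 of 24 G1 genes compared, beside 10.2% of all genes compared. Housekeeping genes were 0.79 higher (SD 0.27) and stem cell genes 0.97 (SD 0.65) in those cells, and their part in the member differences was not tested.

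Among the members, chromosome genes held the most calls between KO MK and sound KO NMK cells. The score difference of KO MK from KO NMK was 0.03 (SD 1.87) with all libraries and -0.70 (SD 1.10) without the failed ones. It was -1.12 (SD 1.03) among cells with no title prefix and 1.80 (SD 2.77) among B1 cells, where both failed libraries belong. Without those, the B1 difference turned to -0.42 (SD 0.54, n = 2 and 3). Called lower in KO MK were 2 of 42 members, Top2a and Mki67, and called higher 0, beside 0.614% lower and 13.3% higher among all genes. Without KO MK 1B, 4 members were higher and 2 lower, and without KO MK 1A only 1 was lower. Without the failed libraries 13 were lower and 0 higher, beside 3.35% and 12.7%. The median member difference was then -0.76, against 0.36 over the genes compared.

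Of those 13, 6 were chromosome genes: Top2a, Mki67, Cdca5 and the condensin subunits Smc2, Smc4 and Ncapd2. The 7-gene chromosome score was lower in KO MK by 1.91 (mean 4.16 ± 0.93, n = 5, against 6.08 ± 0.49, n = 11; pooled SD 0.64), and 4 of 5 KO MK cells were under every sound KO NMK cell. Top2a was 1.0 TPM in KO MK 1A, 3.6 in 1B, 15.6 in 2, 34.0 in B1-4 and 40.3 in B1-3, all under the 56.2 TPM of the lowest sound KO NMK cell. The difference was -3.30 (SD 1.11), and 0.221% of all genes were lower with no overlap. WT MK cells held 3.3 to 43.7 TPM of Top2a, so KO MK differed from WT MK by only -0.55 (SD 1.57). Exons of Top2a overlap a small RNA gene on the same strand. Mki67 was 5.5, 2.4, 1.5, 2.3 and 13.3 TPM in the same order of KO MK cells and 7.8 to 57.1 TPM in sound KO NMK cells (-2.64, SD 1.0), with only B1-3 inside that range. Cdca5 was 8.9 to 133.3 TPM against 85.1 to 506.9 TPM (-2.30, SD 1.09).

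Of the remaining calls, 3 were entry genes (Ccna2, Fbxo5 and the transcription factor Foxm1), 2 kinetochore genes (Birc5 and Spc25) and 2 spindle genes (Kif11 and Nusap1). Fbxo5 was 0.1 TPM in KO MK 1A, 14.8 in B1-3, 15.7 in B1-4 and 70.7 in 2, all under the sound KO NMK cells, but 330.4 in 1B (-3.64, SD 1.88). No checkpoint or exit gene was called. Members that were not called had medians on either side. In KO MK against sound KO NMK cells, Ccnb1 had a median of 244.9 TPM against 129.3 (2.67, SD 3.41), Ube2c of 704.7 against 274.0 (0.62, SD 2.76) and Cenpa of 81.3 against 12.4 (1.99, SD 2.76), none of them beyond the spread. Plk1 had a lower median, 30.6 TPM against 119.8 (-0.15, SD 3.30). Replication genes moved alongside the chromosome genes, with 18 of 43 lower, 1 higher and a score difference of -0.99 (SD 0.65). Among them Tk1, the thymidine kinase, was 5.2 to 28.3 TPM in KO MK and 27.4 to 262.1 TPM in sound KO NMK cells. Of 16 cytokinesis genes compared, 2 were lower, among them Aurkb, the passenger complex kinase (-2.78, SD 2.55). These replication and cytokinesis counts stand beside 3.35% called lower and 12.7% called higher among all genes compared. Housekeeping genes were 0.42 lower (SD 0.26), and their part was not tested.

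**Figure D4:**
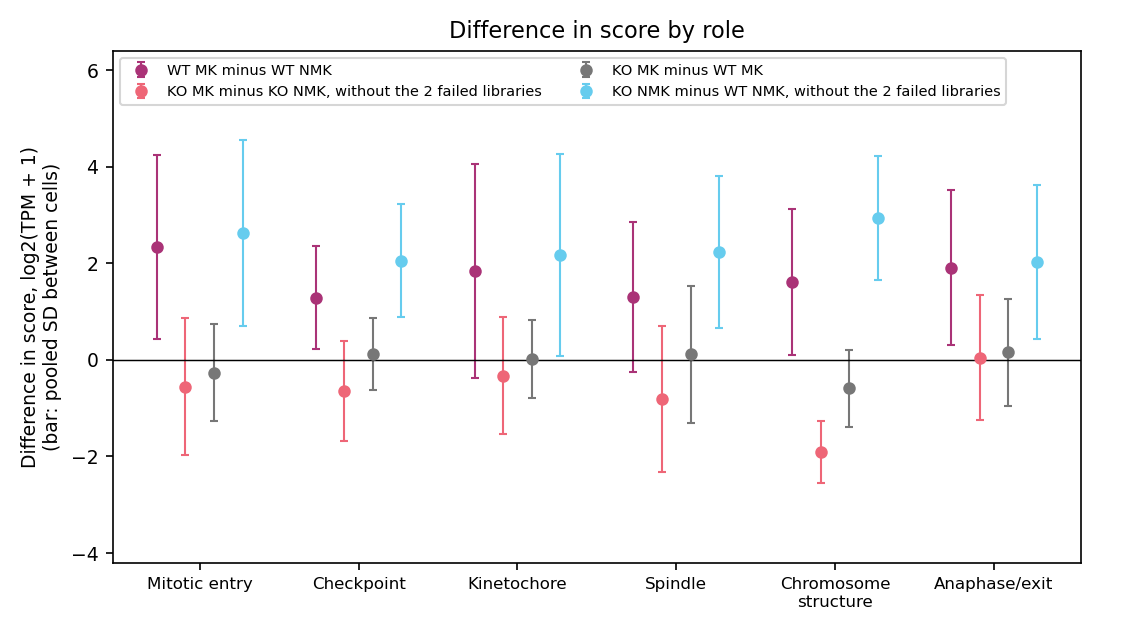
Difference in the score of each role (vertical axis, mean log2(TPM + 1)) in 4 comparisons, with bars of 1 pooled SD between cells on either side and no test. The chromosome score of KO MK against sound KO NMK cells, at -1.91, is the lowest point, and the points of KO MK against WT MK lie from -0.59 to 0.16.

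The 5 KO MK cells differed in which members they held. KO MK 1B had the lowest score, 3.10, with 0 TPM of Ccnb2, 0 of Plk1 and 0.9 of Cenpa, but with the most Fbxo5 of the group and a replication score of 5.69, the highest of the group. KO MK 1A showed another pattern, with Ccnb2 at 753.3 TPM, Cenpa at 81.3 and Cdc20, the activator of the anaphase-promoting complex, at 186.9, but Fbxo5 at 0.1, Nusap1 at 0.3, Top2a at 1.0 and a replication score of 3.65, the lowest of the group. KO MK B1-3 had the highest score, 6.32, with Ccnb1 at 1677.3 TPM, Ube2c at 1827.2 and Plk1, the polo kinase, at 433.9. These 3 cells were the ones with platelet transcripts. KO MK 2 and B1-4, without them, had scores of 4.90 and 5.41 and Ccnb2 at 951.9 and 694.8 TPM. KO MK 1, which the authors left out, had a platelet score of 7.62 and a mitosis score of 0.67, and KO MK B1-1, also left out, had 5.23 and 2.08.

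KO MK and WT MK cells had near mean scores, with a difference of -0.10 (SD 0.90). It was -0.77 (SD 0.68) among cells with no title prefix and 0.67 (SD 0.65) among the 3 cells with the prefix B1. Of 41 members compared, Aurka, a spindle pole kinase, was called higher in KO MK (1.36, SD 1.32), and Mki67 (-1.44, SD 0.86) and Foxm1 (-1.25, SD 1.21) lower. Among all genes 9.74% were higher and 7.07% lower, so the 1 and 2 of 41 members were under that background. Without KO MK 1B, 7 were higher and 2 lower, and without B1-3, 8 were lower and 0 higher. Aurka was 10.8 to 215.6 TPM in KO MK and 5.9 to 42.8 TPM in WT MK. Mki67 was 1.5 to 13.3 TPM against 5.6 to 29.4 TPM, and the groups overlapped in all 3 genes. Fbxo5 differed by -2.23 but varied widely (SD 2.28). Replication genes were lower in 8 of 43 and higher in 0, such as Pole2 of the leading-strand polymerase (-1.52, SD 1.13), and the G1-S cyclins Ccne1 (-3.29, SD 2.45) and Ccne2 (-2.08, SD 1.75) were also lower. The authors' outlier step bears on this comparison: with libraries from the full table that had a housekeeping score of 6 or more, KO MK stood 1.07 under WT MK (n = 7 and 6).

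**Figure D5:**
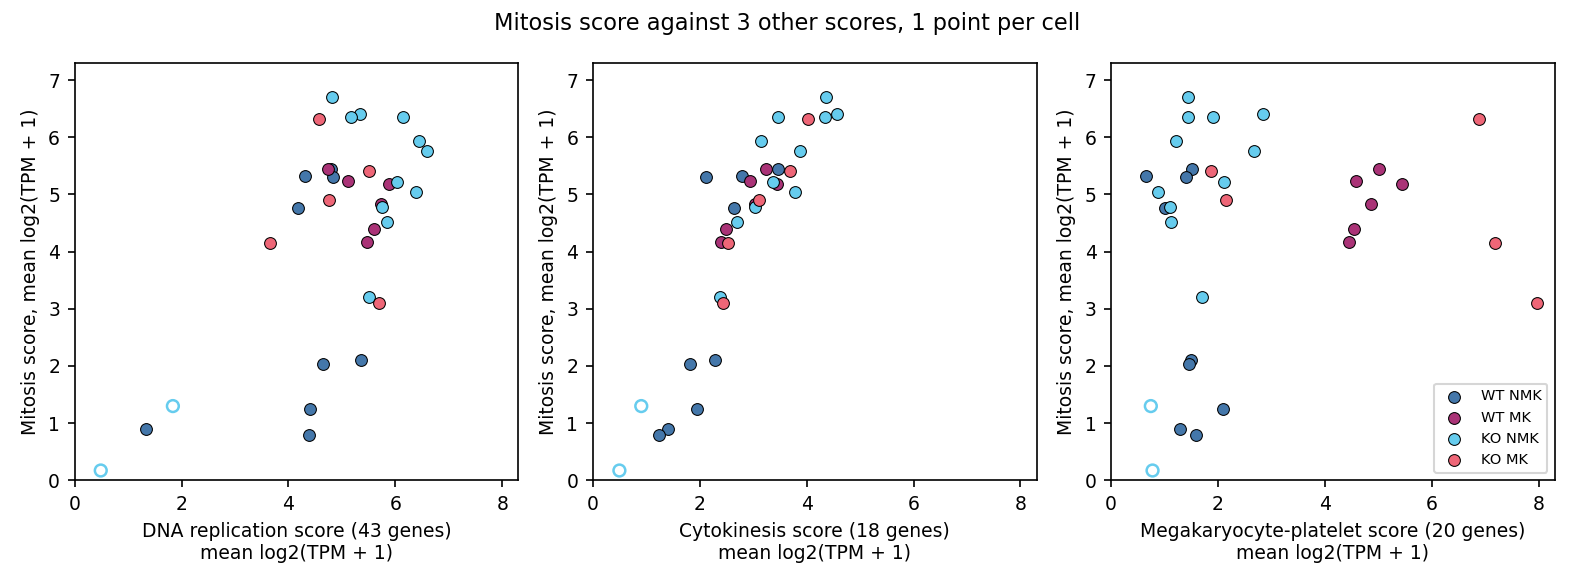
Mitosis score of each cell (vertical axes) against its DNA replication, cytokinesis and megakaryocyte-platelet scores (horizontal axes, all mean log2(TPM + 1)), coloured by group, with the 2 failed libraries open. At replication scores of 4.38 to 5.35, 4 WT NMK cells have mitosis scores of 2.11 or less, and the 5 KO MK cells kept, with and without platelet transcripts, have mitosis scores above 3.

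The mitosis score minus the cytokinesis score of the same cell averaged 1.96 ± 0.24 (SD, n = 6) in WT MK and 1.62 ± 0.59 (n = 5) in KO MK. It averaged 1.93 ± 0.60 (n = 11) in sound KO NMK and 0.92 ± 1.52 (n = 9) in WT NMK. In WT NMK 1B, 2, 4A and 2B it was below 0, at -0.70, -0.51, -0.44 and -0.18. The groups overlapped, and 3 of the 4 means were close. The passenger complex is split over both lists, with Birc5 and Cdca8 among the members and Aurkb among the cytokinesis genes. Against the replication score, the mitosis score stood at -1.15 ± 1.96 in WT NMK, -0.55 ± 0.79 in WT MK, -0.35 ± 1.28 in sound KO NMK and -0.06 ± 1.58 in KO MK, again with overlap of all groups. Scores of other blood cell markers reached 3.70 for erythroid genes, in KO NMK 1, 2.92 for granulocyte-monocyte and 1.29 for lymphoid genes, both in KO MK 2, and 2.14 for mast cell-basophil genes, in WT MK B1-1. Erythroid genes reached 3.0 in KO MK, 2.05 in WT MK and 2.16 in WT NMK. Their part in the member values was not tested.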

How the data were processed

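Single-cell RNA libraries of cultured mouse CD41pos stem cells were made with SMART-Seq kits, per the labels. The authors deposited TPM values with 1 decimal, as a full table (46 libraries) and a table without outliers (33 libraries, identical values). FastQC 0.11.7, cutadapt 1.9.1, STAR 2.6.1e, featureCounts 1.6.2 and mm10 are named per the submitters' processing notes. Annotation, strand setting and outlier rule: not given in the sources used here. Depth is unknown, and a few abundant transcripts can lower all other values in a library. Not analysed here were 44 of the 90 labelled samples, and 1 column that matched none was left aside.

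Each library was matched to its group by the labels. With no animal or culture named, each group was 1 sample, and group means of log2(TPM + 1) were subtracted (pseudocount 1) and read against the pooled SD over cells, a scale that understates differences of low genes. Score limits of 1 and 3 were set by choice, and shares have exact Clopper-Pearson 95% intervals. Members, roles and lists were chosen with earlier results of these data known. Values per cell are given for members that had the largest differences within their role at a mean of 10 TPM or more, up to 4 per role. From other lists, up to 5 such genes were named. Ccna2, Plk1, Smc4, Pttg1, Cdk1, Aurka and Cdc20 were described outside that rule after their values were seen. Of 42 members, 12 share exon bases with another gene, 9 of them on the opposite strand (GENCODE M21). The promoters came from RefSeq. Alternatives were the full table, pseudocounts of 0.1 and 10, medians, filters, title prefixes, size factors, other limits and each cell left out. The WT MK libraries without prefix were also counted as 1 for score differences. The full table without failed libraries (housekeeping score under 6) and the B1 cells without them were added after seeing the data. The scripts were tested on simulated data. Tools were Python 3.11.15, pandas 2.3.3, numpy 2.4.6, matplotlib 3.10.9 and scipy 1.17.1.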

Additional observations from a re-analysis of the deposited data

Results flagged for a closer look

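In groups of 4 to 10 cells, 81 sets of values were checked for a cell far from the others by Dixon's ratio, which chance passes in about 1 of 20 sets, and 7 stood out. KO MK 1B had an exit score of 2.71, against 5.43 in the nearest KO MK cell. In the same cell Ccnb2 was 0 on the log2(TPM + 1) scale, with the nearest cell at 9.44, and Cenpa was 0.93, with the nearest at 6.11. WT NMK 2 had a replication score of 1.34, against 4.19 in the nearest WT NMK cell. WT MK B1-1 had Ccnb2 at 6.07, against 8.28 in the nearest, and WT MK 1A had Fbxo5 at 4.14, against 6.52. WT NMK 3 had Kif4 at 2.54, above the 0.58 of the nearest cell.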

How the results depend on the processing

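Of 37 score differences under alternatives, 36 moved by less than the spread between cells, as did all 66 with a cell left out. That of KO MK from WT MK was -1.07 with the full table and a housekeeping score of 6 or more. Moves of over 1.5 times were among those within the spread. WT MK minus WT NMK was 0.30 with the full table, 0.76 with a pseudocount of 10, 2.99 with one of 0.1 and 2.91 by medians. KO NMK minus WT NMK was 0.97 with a pseudocount of 10 and 3.11 by medians. KO MK minus KO NMK was -1.24 with the full table, -1.68 (SD 1.43) with its sound libraries, -1.12 (SD 1.03) without the title prefix, 1.80 with it and -0.42 with it and sound libraries. KO MK minus WT MK was -0.77 (SD 0.68) without the prefix and 0.67 (SD 0.65) with it. Leaving out a cell gave 1.49 to 2.07 for WT MK minus WT NMK, -0.36 to 0.45 for KO MK minus KO NMK, -0.49 to 0.32 for KO MK minus WT MK and 1.36 to 2.03 for KO NMK minus WT NMK, so the 2 differences near 0 took either sign. Counts of members called moved more. For WT MK minus WT NMK (14), the full table gave 1 and a pseudocount of 10 gave 9. Leaving out a cell gave 8 to 23, with 8 without WT NMK 2 or 4A, 9 without 1B and 23 without 3, 1A or 3A. For KO MK minus KO NMK (2), a pseudocount of 0.1 gave 0, a housekeeping score of 6 or more gave 13, and 16 when applied to all libraries. Leaving out a cell gave 1 to 6, with 1 without KO MK 1A, 4 without KO NMK 1A, 1B or B1-3b, 5 without KO NMK B1-2a and 6 without KO MK 1B, of which 4 were higher. For KO MK minus WT MK (3), the full table gave 0, a pseudocount of 10 gave 1, a difference of 2 gave 0 and the full table with sound housekeeping 8. Leaving out a cell gave 1 to 9, with 1 without KO MK B1-4 or WT MK 1 or 1B, 8 without KO MK B1-3 and 9 without KO MK 1B. For KO NMK minus WT NMK (9), the full table gave 5, and a housekeeping score of 6 or more gave 22 in either table. Leaving out a cell gave 5 to 15, with 5 without WT NMK 2 or 1B, 14 without WT NMK 1A or KO NMK B1-1b and 15 without WT NMK 3A or KO NMK B1-2a. A low limit of 0.5 left 0% of WT NMK cells low. A housekeeping score of 6 or more gave 100% high and 0% low KO NMK cells in either table. The cause was not tested. Of 168 values of single members, 161 stayed within the spread, and with the full table Ccna2 differed by only 0.12 between WT MK and WT NMK cells. WT NMK held 0 cells with the prefix B1, so no value could be had there. No paired analysis was possible because no result comes from a test and the labels pair no cells. Depth is unknown, and a listed 0 may be a transcript missed.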

Other observations

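The full table held 13 libraries that the authors left out, and 10 of these had a housekeeping score under 6. Of the other 3, KO NMK B1-1a had a housekeeping score of 10.2 and a mitosis score of 5.62, inside the range of the sound KO NMK cells. KO MK 1 had a housekeeping score of 8.70 and a megakaryocyte-platelet score of 7.62, but a mitosis score of 0.67, under every KO MK cell kept, with 5 of 42 mitosis genes at 1 TPM or more. KO MK B1-1 had a housekeeping score of 6.80, a mitosis score of 2.08 and 27999 genes above 0.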
